A study of Homo sapiens with 12 samples.

Results

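LINC symbols are given to long intergenic noncoding RNAs, which are transcripts without a long open reading frame that lie outside protein-coding genes. The LINC genes analyzed here were taken from the counts of 60580 genes in HCT116 cells. HCT116 is an established human colorectal cancer line with functional p53. Of 2101 genes with a symbol made of LINC and digits, those with a mean of at least 1 CPM in at least 1 of 4 states were kept, where CPM are counts scaled to the total of each library. 145 genes met this rule, and all 145 also passed the filter on low counts used for testing. The rule used the levels, so that the levels are a description. The fold changes were not used by it, but 56 of the 145 genes were below 1 CPM in some state and may have entered because they differed between states. Counts are therefore also given for the 89 genes at 1 CPM in all 4 states.

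The states were *WT* and *miR-34a/b/c-KO* (knockout) cells, each treated with DMSO, the solvent, or with 5-FU (4 µM), a pyrimidine analog that disturbs nucleotide synthesis, for 48 h. In the knockout cells the regions of *miR-34a* and *miR-34b/c*, which encode p53-induced microRNAs, were deleted with CRISPR/Cas9. Both genotypes are single-cell-derived clones, and the *WT* clones had received the Cas9 plasmid without a guide. Whether the replicates of a state are different clones is not stated, so that p-values measure the spread between these libraries, and differences between genotypes cannot be told apart from differences between clones. RNA was sequenced in 3 replicates per state. In all 60580 genes, replicate 1 of 5-FU-treated *WT* cells held the counts of *WT* replicate 3 with DMSO, so it was left out, which leaves 11 libraries and only replicates 2 and 3 of *WT* cells with 5-FU.

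Totals ranged from 22831415 to 39064210 counts per library. At this depth 3 counts correspond to 0.0768 to 0.131 CPM, a limit that covers counting error only. The genes *MIR34A*, *MIR34B* and *MIR34C* were listed with 0 counts in every library, so that they do not check the genotype. Of the epithelial markers, *EPCAM*, *KRT8*, *KRT18*, *KRT19* and *CDH1* were abundant (*KRT8* 2270 to 6020 CPM), whereas the differentiation markers *CDH17*, *VIL1* and *LGALS4* reached at most 2.32 CPM (*VIL1*). Of 14 markers of fibroblasts, leukocytes and endothelium, *COL1A1* (20.7 to 74 CPM), *CD68* (14.8 to 35.8 CPM), *VWF* (0.917 to 6.04 CPM) and *LYZ* (0.41 to 2.45 CPM) had levels above 1 CPM in some library, and the others were near 0.

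Long noncoding RNAs are transcribed by RNA polymerase II, are often spliced and capped, and are mostly much less abundant than mRNAs. Some act in the nucleus on the chromatin near their own gene, some bind proteins, and some carry sites for microRNAs in their exons. A microRNA pairs with its targets mainly through its seed (bases 2 to 8), and pairing tends to lower the level of the target. The mature sequences of 2 of the 3 deleted microRNAs are shown 5′ to 3′ with the seed in capitals (RefSeq, GRCh38.p14). The seeds are shifted by 1 base against each other and hold the same core.
hsa-miR-34a-5p: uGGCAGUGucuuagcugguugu
hsa-miR-34b-5p: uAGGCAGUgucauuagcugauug

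The match to the seed of miR-34a-5p, CACTGCC, was present in the annotated exons of 58 of the 143 genes that could be matched to GENCODE release 44 (40.6%). Of 556 other lncRNAs that met the same 1 CPM rule, 246 (44.2%) held it. The median length of merged exons was 4134 and 4421 bases, respectively. The windows below show the match in capitals within 30 bases, in the direction of the transcript, for the 5 genes with a match that had the highest level per kilobase and for *LINC01006*, which was added after its values were seen. Coordinates are those of the 7 matching letters (GRCh38). *LINC01123* and *LINC01106* are near-identical copies and hold the same window.
LINC01123, chr2:109988642-109988648, plus strand: ccatcagcagcCACTGCCcatttccctgat
LINC01106, chr2:110382858-110382864, minus strand: ccatcagcagcCACTGCCcatttccctgat
LINC00888, chr3:183447737-183447743, plus strand: actggtggcgaCACTGCCtgagcccgctgc
LINC00857, chr10:80207670-80207676, plus strand: tacccagccccCACTGCCtggacgcctgcg
LINC00205, chr21:45292621-45292627, plus strand: cccccacaggcCACTGCCccgaggccgcca
LINC01006, chr7:156444925-156444931, minus strand: ggatgttttcaCACTGCCactctagaaaga

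In DMSO, none of these 5 genes was called between the genotypes. Their log2 fold changes (knockout against *WT*) were 0.00 for *LINC01123*, -0.13 for *LINC01106*, 0.21 for *LINC00888*, -0.34 for *LINC00857* and -0.13 for *LINC00205*. In 5-FU, 3 of the 5 were called lower in the knockout, *LINC01123* with -0.93, *LINC00857* with -0.78 and *LINC00205* with -0.64. Over the 58 genes with a match, the median was 0.084 in DMSO, and 12 genes were called higher and 7 lower. Over the 85 genes without a match, the median was 0.24, with 14 genes called higher and 11 lower. In 5-FU the medians were -0.363 with and -0.177 without a match, with 5 genes called higher and 19 lower against 11 and 24. Over all genes, 14.1% were called in DMSO and 18.1% in 5-FU. A match is a description of letters in the annotated exons and does not show binding. *LINC01006* held 5 matches. Other genes with several matches went both ways in DMSO. *LINC01814* (-1.32) and *LINC01694* (-0.63) were called lower, *LINC00923* (0.62) was called higher and *LINC01547* (-0.06) was not called.

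Most of the 145 genes were expressed at low levels. The median of their mean over the 4 states was 2.2 CPM, the middle of the genes (lower to upper quartile) ranged from 1.22 to 6.07 CPM, and the highest, *LINC00963*, had 52.08 CPM. Protein-coding genes chosen by the same rule had a median of 35.4 CPM. Together the 145 genes took 0.0743 to 0.075% of the counts of *WT* and 0.0836 to 0.0843% of those of knockout libraries with DMSO. With 5-FU the share was 0.0941 and 0.0968% in the 2 *WT* libraries and 0.0806 to 0.0857% in knockout libraries. 89 genes reached 1 CPM in all 4 states, 21 in 3, 15 in 2 and 20 in 1. Just inside the threshold were *LINC01730*, *LINC01615* and *LINC02724*, with 1.003, 1.016 and 1.016 CPM in their highest state, and just outside were *LINC01842* (0.982), *LINC01275* (0.972) and *LINC02804* (0.968).

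Per kilobase of merged exons, which allows levels of different genes to be compared, 10 genes stood at the top, leaving out 5 whose annotated model is a pseudogene. Mean levels over the states were 7.39 CPM per kilobase for *LINC01123*, 7.35 for *LINC01106*, 7.22 for *LINC00857*, 6.73 for *LINC01315* and 5.47 for *LINC00173*, followed by 4.95 for *LINC00205*, 4.93 for *LINC00623*, 4.59 for *LINC01578*, 4.52 for *LINC00888* and 4.44 for *LINC00294*. *LINC01578* is also known as *CHASERR*, a transcript that limits the expression of its neighbor *CHD2*. *LINC01123* and *LINC01106* share 82.6 and 96.2% of their exon bases with each other, and *LINC00623* shares 100.0% with *LINC00869*, so that reads could be split between them and their levels are uncertain. The annotated exons count all isoforms and may exceed what these cells use.

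LINC genes differed between the genotypes in both directions without the drug, and with it most of those called were lower in the knockout. Genes were called with FDR < 0.05 (edgeR quasi-likelihood test, Benjamini-Hochberg adjustment over 16123 genes) and an absolute fold change > 1.5. In DMSO, 27 genes were higher and 18 lower in knockout than in *WT* cells (31.0% called, median log2 fold change 0.143). Over all genes tested, 14.1% were called (9.1% higher and 4.97% lower), with a median of 0.026. In 5-FU, 16 genes were higher and 43 lower in knockout cells (40.7%, median -0.292), against 18.1% of all genes (7.58% higher, 10.6% lower, median -0.046). Of the 89 genes at 1 CPM in all states, 15 were higher and 6 lower in DMSO, and 7 were higher and 24 lower in 5-FU. RUVg models unwanted variation from control genes, here the tested genes except the 5000 with the smallest p for any difference between states. With 1 factor of it, 6 of the 145 genes were higher and 3 lower in DMSO.

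5-FU raised more LINC genes than it lowered in *WT* cells, and equal numbers in knockout cells. In *WT* cells 50 genes rose and 13 fell (43.4%, median 0.354), where 27.8% of all genes were called (18.5% higher and 9.38% lower, median 0.034). In knockout cells 29 rose and 29 fell (40.0%, median -0.11), where 25.2% of all genes were called (13.3% higher and 12% lower, median -0.059). Of the 89 genes at 1 CPM in all states, 28 rose and 7 fell in *WT* and 16 rose and 17 fell in knockout cells. All 4 drug counts fell to 0 with 1 factor of RUVg, 98.2% of whose variance lay between the treatments. At FDR < 0.05 alone, 5-FU raised 5141 and lowered 4569 of all genes in *WT* cells (edgeR). The controls therefore held genes that 5-FU changed, so that the RUVg fit cannot decide on the drug response. In that fit, 8 of 145 genes had an unadjusted p below 0.05 in each genotype, whereas DESeq2 called 48 higher and 13 lower in *WT* and 32 higher and 25 lower in knockout cells.

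The share of LINC genes called was set beside that of other genes of like abundance. Genes at few counts differ from abundant ones in how often they are called, so 2366 other genes with mean levels between the quartiles of the LINC genes were set beside them. Of these, 27.7% were called between the genotypes in DMSO and 33.0% in 5-FU. After 5-FU, 41.4% were called in *WT* and 39.8% in knockout cells. The 89 LINC genes at 1 CPM in all states had 23.6% called between the genotypes in DMSO and 34.8% in 5-FU, and 39.3 and 37.1% after 5-FU in *WT* and knockout cells. The 56 genes below 1 CPM in some state had 42.9, 50, 50 and 44.6% in the same order. The 2366 genes needed 1 CPM in only 1 state and lie between the quartiles. The 89 genes were chosen more strictly and reach 52.08 CPM (*LINC00963*), so that the 2 sets are not matched. Antisense lncRNAs (282 genes with symbols ending in AS) were called at 25.2, 24.8, 39.7 and 28.7%, and 995 genes with clone names at 22.7, 25.2, 41.3 and 32.6%. The protein-coding genes were called at 12.6, 16.8, 25.9 and 24.5%. Divergent transcripts (42) and host genes of small RNAs (45) comprise few genes. No test of these shares was made.

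*LINC01405* was 10.4-fold lower in the knockout in DMSO and 11.3-fold lower in 5-FU. This gene, which RefSeq names *VHRT*, lies on chromosome 12 (110934590 to 110959093, plus strand), 13147 bases from the start of *MYL2*, and 20.5% of its exon bases overlap an antisense transcript. With DMSO it had 10.5, 13.2 and 10.9 CPM in *WT* and 1.29, 0.92 and 1.13 CPM in knockout libraries. With 5-FU it had 32.2 and 25.4 CPM in *WT* and 2.53, 2.92 and 2.63 CPM in knockout libraries. The *WT* libraries were above all knockout libraries under both treatments. The log2 fold change between genotypes was -3.38 ± 0.16 (SE, FDR 1.36e-10) in DMSO and -3.50 ± 0.14 (FDR 3.97e-11) in 5-FU. 5-FU raised it in both genotypes, by 1.30 ± 0.12 (FDR 1.29e-07) and 1.18 ± 0.20 (FDR 9.77e-05), and these responses differed by -0.11 ± 0.25 (FDR 0.774). *MYL2*, a muscle myosin light chain gene, rose after 5-FU too, by 1.72 ± 0.29 (FDR 7.79e-05) and 1.06 ± 0.28 (FDR 0.00335), and was not called between the genotypes (0.22 ± 0.30 and -0.44 ± 0.27).

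*LINC01615* was near 0 in knockout cells. On chromosome 6 (169157162 to 169163007, minus strand), its nearest coding gene is *THBS2*, which encodes the matrix protein thrombospondin 2, with a start 91043 bases away. *LINC01615* had 0.563, 0.253 and 0.709 CPM in *WT* libraries with DMSO and 1.07 and 0.958 CPM with 5-FU. It met the 1 CPM rule only in *WT* cells with 5-FU, so that its highest state follows from how it was chosen. knockout libraries had at most 2 counts with DMSO and 3 with 5-FU. Computed against 3 counts per library, it was at least 4.39-fold lower in DMSO and at least 8.18-fold lower in 5-FU in the knockout. *THBS2* was called lower as well, with group means of 0.477 and 0.0279 CPM in *WT* and in knockout cells with DMSO.

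Further LINC genes were lower in knockout cells under both treatments. *LINC01814*, located 85942 bases from the start of *ID2*, had 2.04, 1.52 and 2.13 CPM in *WT* libraries with DMSO and 4.86 and 6.6 CPM with 5-FU, and 0.322 to 1.32 CPM in all knockout libraries. Its log2 fold changes between genotypes were -1.32 ± 0.34 (FDR 0.00488) in DMSO and -2.52 ± 0.32 (FDR 9.76e-06) in 5-FU. *ID2*, which encodes an inhibitor of basic helix-loop-helix factors, was lower too (-1.10 ± 0.08, FDR 9.34e-09, and -0.91 ± 0.08, FDR 2.53e-07). For *LINC02535* the values were -1.88 ± 0.27 (FDR 3.04e-05) and -1.24 ± 0.24 (FDR 0.00048). For *LINC01694* the values were -0.63 ± 0.18 (FDR 0.00985) and -1.66 ± 0.20 (FDR 5.19e-06). For *LINC00861* on chromosome 8 they were -1.23 ± 0.39 (FDR 0.017) and -2.17 ± 0.38 (FDR 0.000206), with *WT* libraries at 1.43 and 3.25 CPM in 5-FU. This gene met the 1 CPM rule only in *WT* cells, so that the direction follows from how it was chosen. *LINC00431* had -1.25 ± 0.23 (FDR 0.00027) and -0.69 ± 0.25 (FDR 0.0309), but all of its annotated bases have a near-identical copy in *TUBGCP3*, so that its counts are uncertain. *LINC01204* was called lower in DMSO only (-1.23 ± 0.38, FDR 0.0148), and had -0.63 ± 0.33 in 5-FU (FDR 0.122). Its call in DMSO was lost without replicate 1 or 2 of knockout cells with DMSO (FDR 0.0637 and 0.0516).

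*LINC02657*, also known as *LASTR*, an RNA described to act on splicing through SART3, was called lower in the knockout in 5-FU and not in DMSO. It had 0.176, 0.337 and 0.312 CPM in *WT* and 0.167, 0.0418 and 0.0645 CPM in knockout libraries with DMSO. With 5-FU it had 2.46 and 2.29 CPM in *WT* and 0.249, 0.195 and 0 CPM in knockout libraries. The *WT* libraries with 5-FU stood above all others. The gene met the 1 CPM rule only in this state, so that its highest state follows from how it was chosen. It rose by 3.06 ± 0.46 in *WT* (log2, FDR 2.44e-05) and the genotypes differed by -4.01 ± 0.51 in 5-FU (FDR 9.34e-06). In knockout cells the response was 0.65 ± 0.79 (FDR 0.5). The difference of the responses, -2.41 ± 1.01, did not pass the threshold (FDR 0.0891). In DMSO the genotypes differed by -1.60 ± 0.69 (FDR 0.0689), with all knockout below all *WT* libraries. Knockout libraries held 4, 1 and 2 counts with DMSO and 6, 5 and 0 with 5-FU, so that these sizes are uncertain.

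*LINC01006* had the largest log2 fold change of the 145 genes toward the knockout in DMSO. It is now named *RNF32-DT* and is transcribed from the minus strand of chromosome 7 (156388922 to 156640654), with a start within 373 bases of that of *RNF32* on the other strand. It had 0.773, 0.632 and 0.993 CPM in *WT* and 5.67, 7.86 and 6.58 CPM in knockout libraries with DMSO. With 5-FU it had 1.51 and 1.68 CPM in *WT* and 5.36, 5.06 and 4.38 CPM in knockout libraries. No knockout library overlapped a *WT* library. The log2 fold change between genotypes was 3.01 ± 0.19 (FDR 3.45e-09) in DMSO and 1.56 ± 0.20 (FDR 8.88e-06) in 5-FU. Its neighbor *RNF32* went the other way, with -1.11 ± 0.17 (FDR 5.38e-05) in DMSO and -1.51 ± 0.19 (FDR 8.38e-06) in 5-FU.

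*LINC00672*, *LINC00342* and *LINC00963* were also higher in knockout cells under both treatments. *LINC00672*, which a later annotation lists as the coding gene *LASP1NB*, had 0.511 to 0.716 CPM in *WT* and 2.08 to 2.51 CPM in knockout libraries with DMSO, and 0.445 and 0.461 against 2.23 to 3.27 CPM with 5-FU. Its log2 fold changes were 1.93 ± 0.26 (FDR 1.48e-05) and 2.47 ± 0.30 (FDR 5.11e-06). It met the 1 CPM rule only in knockout cells, so that the direction follows from how it was chosen. *LINC00342* had 4.15 to 5.39 CPM in *WT* and 14.1 to 18.6 CPM in knockout libraries with DMSO, and 5.4 and 9.2 against 13.7 to 18.6 CPM with 5-FU (1.79 ± 0.18, FDR 5.01e-07, and 1.08 ± 0.19, FDR 0.000189). *LINC00963* had 34.8, 37.4 and 37.9 CPM in *WT* and 73.7, 78.8 and 72.8 CPM in knockout libraries with DMSO, and 33 and 36.1 against 62.9, 62.1 and 60.8 CPM with 5-FU. It was higher by 1.01 ± 0.06 (FDR 1.34e-09) and 0.76 ± 0.07 (FDR 1.61e-07), and 5-FU changed it by less than 1.5-fold in either genotype.

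Genes beside a LINC gene can differ with it between clones. For each LINC gene the median log2 fold change of the 20 nearest coding genes tested was computed. For *LINC00963* (chromosome 9, 129476946 to 129513687) this median was 0.765 in DMSO and 0.721 in 5-FU, beside its own 1.01 and 0.76. *LINC01503*, whose neighbors overlap with these (median 0.765 and 0.606), had -0.22 and -0.04 itself. Farther along the same chromosome, *LINC02846* was higher by 1.40 and 0.83, with a median of 0.521 and 0.377 around it. On chromosome 8, the genes around *LINC00861* had a median of -0.732 in DMSO and -0.684 in 5-FU. On chromosome 2, *LINC01881* had 0.46 under both treatments, was called in neither, and had neighbors with a median of 1.002 and 1.016. For the other 138 matched genes this median was between -0.3 and 0.3 in both comparisons. Whether these neighborhoods take part in the differences of the LINC genes was not tested.

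Further genes were higher in the knockout. *LINC01844* was higher by 1.61 ± 0.29 in DMSO (FDR 0.00027) and 1.28 ± 0.37 in 5-FU (FDR 0.00941). It met the 1 CPM rule only in knockout cells with DMSO, so that its highest state follows from how it was chosen. *LINC01833*, transcribed away from the homeobox gene *SIX3* 2503 bases apart, was higher by 1.22 ± 0.20 (FDR 0.000116) and 1.30 ± 0.28 (FDR 0.00101), with 1.22 to 1.56 CPM in *WT* and 3.06 to 3.38 CPM in knockout libraries in DMSO. *LINC00326* was higher by 0.75 ± 0.13 (FDR 0.0002) and 1.16 ± 0.19 (FDR 0.000113). *LINC01311*, higher by 1.41 ± 0.52 in 5-FU (FDR 0.0325), was not called there without replicate 3 of *WT* cells with 5-FU (log2 fold change 0.73, FDR 0.226) or without replicate 1 or 2 of knockout cells with 5-FU. 11 genes were called higher and 14 lower under both treatments, and *LINC01521* was higher in DMSO and lower in 5-FU. These are 7.59, 9.66 and 0.69% of the 145 genes, against 3.61, 3.33 and 0.149% of all genes tested. Some of them were below 1 CPM in some state and may have been kept because they differed. Examples are *LINC01615* and *LINC01133* among the lower and *LINC01844* and *LINC02846* among the higher genes. Across the 145 genes the 2 differences, which share no libraries, correlated with r = 0.748 (Spearman's rho 0.672), against 0.551 and 0.496 across all genes. Genes are not independent replicates.

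*LINC00578*, near the limit of detection in DMSO, was induced by 5-FU in both genotypes. It lies on chromosome 3 (177441910 to 177767379, plus strand) and had 0.0352, 0 and 0 CPM in *WT* and 0, 0.0836 and 0.161 CPM in knockout libraries with DMSO. With 5-FU it had 1.05 and 0.958 CPM in *WT* and 1.33, 1.21 and 1.31 CPM in knockout libraries. It met the 1 CPM rule only with 5-FU, so that the direction of its change follows from how it was chosen. *WT* libraries with DMSO held at most 1 count, so that the increase in *WT* cells was at least 9.5-fold when computed against 3 counts per library. In knockout cells the log2 fold change was 3.71 ± 0.53 (FDR 1.35e-05), a size that rests on 0, 2 and 5 counts with DMSO. In 5-FU the genotypes differed by 0.27 ± 0.39 (FDR 0.595).

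*LINC01133*, *LINC00707*, *LINC02846* and *LINC02827* rose in both genotypes as well. *LINC01133* met the 1 CPM rule only in *WT* cells with 5-FU, and the others only with 5-FU. The direction of these changes therefore follows in part from how the genes were chosen. *LINC01133*, which has been described in several epithelial tumors, had 0.281, 0.547 and 0.312 CPM with DMSO and 2.64 and 2.29 CPM with 5-FU in *WT*, and 0.25, 0.125 and 0.129 against 1.04, 0.817 and 0.701 CPM in knockout libraries. It rose by 2.69 ± 0.34 (FDR 3.74e-06) and 2.25 ± 0.41 (FDR 0.000187). *LINC00707* had 0.703, 1.14 and 0.993 CPM with DMSO and 5.89 and 7.25 CPM with 5-FU in *WT*, and 0.625, 0.335 and 0.451 against 1.83, 2.72 and 2.1 CPM in knockout libraries. For both genes, knockout libraries with 5-FU lay between the *WT* libraries with DMSO and those with 5-FU, and both were called lower in the knockout under both treatments. In DMSO the call of *LINC01133* was narrow (-1.17 ± 0.46, FDR 0.0468), on 8, 13 and 11 counts in *WT* against 6, 3 and 4 in knockout libraries. *LINC02846* rose by 2.75 ± 0.37 (FDR 8.74e-06) and 2.18 ± 0.29 (FDR 8.5e-06), and *LINC02827* by 3.62 ± 0.50 (FDR 1.17e-05) and 1.66 ± 0.40 (FDR 0.00181). With DMSO, *LINC02827* held only 1, 2 and 5 counts in *WT* and 6, 5 and 16 in knockout libraries, so that these sizes are uncertain. With 5-FU its genotypes overlapped (1.1 and 1.3 against 0.956, 1.44 and 1.01 CPM).

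The promoters of *LINC00578* and *LINC01133* are shown because both genes were induced by 5-FU from a low level (RefSeq, GRCh38.p14, 250 bases before to 50 bases after the start, plus strand). Capitals mark CpG dinucleotides. *LINC00578* has 3 of them and *LINC01133* has 1.
LINC00578, chr3:177441671-177441970: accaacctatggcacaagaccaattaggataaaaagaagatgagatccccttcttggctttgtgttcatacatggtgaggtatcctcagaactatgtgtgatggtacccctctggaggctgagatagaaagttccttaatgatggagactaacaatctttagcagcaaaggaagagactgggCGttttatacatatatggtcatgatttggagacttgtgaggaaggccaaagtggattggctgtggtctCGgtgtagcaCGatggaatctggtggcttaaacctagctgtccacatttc
LINC01133, chr1:159960974-159961273: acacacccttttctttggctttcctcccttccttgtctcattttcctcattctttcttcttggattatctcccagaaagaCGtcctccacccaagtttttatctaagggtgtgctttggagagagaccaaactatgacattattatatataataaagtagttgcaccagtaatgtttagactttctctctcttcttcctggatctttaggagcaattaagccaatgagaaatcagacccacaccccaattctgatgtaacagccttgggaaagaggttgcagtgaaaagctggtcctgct

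RefSeq promoters were available for 84 of the 145 genes. The ratio of observed to expected CpG, which is above 0.6 in typical CpG islands, had a median of 0.57 and exceeded 0.6 in 45.2% of them. In 1199 LINC genes under the 1 CPM rule the median was 0.24 and the share 14.1%, and over all 22114 promoters they were 0.53 and 47.0%. Promoters of genes that 5-FU raised in both genotypes (15 of 26 with a sequence) had a median of 0.53, and those of genes called in neither (35 of 61) had 0.57. The sequence TATAAA occurred in 10.7% of the 84 promoters, 9.3% of the LINC genes under the rule and 8.2% of all promoters. A p53 half-site by its consensus occurred in 4.8, 7.8 and 6.6%, on either strand. The 4 LINC genes with it were *LINC01119*, *LINC00839*, *LINC00346* and *LINC02323*. Motifs are letters in a window of 300 bases and do not show binding.

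*LINC02458*, *LINC02609*, *LINC00326*, *LINC01833* and *LINC01670* fell after 5-FU in both genotypes. *LINC02458*, located 42935 bases from the start of the ERK phosphatase gene *DUSP6*, had 5.31, 4.93 and 6.21 CPM with DMSO and 2.56 and 2.46 CPM with 5-FU in *WT*, and 5.83, 5.02 and 4.42 against 2.29, 1.28 and 1.84 CPM in knockout libraries. It fell by 1.16 (SE 0.19, FDR 6.36e-05) and 1.58 (SE 0.19, FDR 1.77e-06) on the log2 scale. *LINC00326* had 4.15, 4.46 and 4.65 CPM with DMSO and 1.23 and 1.09 CPM with 5-FU in *WT*, and 6.88, 7.07 and 8.67 against 3.07, 2.61 and 2.58 CPM in knockout libraries, and fell by 1.95 (SE 0.18) and 1.54 (SE 0.14). The groups did not overlap for either gene. *LINC02609* fell by 1.26 (SE 0.27) and 1.49 (SE 0.26), and *LINC01833* by 1.49 (SE 0.27) and 1.41 (SE 0.21). *LINC01670* fell by 2.37 (SE 0.41) in *WT* and 1.06 (SE 0.37) in knockout cells, but it has a near-identical copy over all of its exons, and its sign in *WT* turned with RUVg. *LINC00482* fell by 1.73 (SE 0.16, FDR 9.81e-08) in knockout cells and *LINC01089* by 1.60 (SE 0.13, FDR 3.5e-08). In *WT* cells their values were -0.53 ± 0.17, which did not reach 1.5-fold, and -0.66 ± 0.15 (FDR 0.00126, called lower).

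The response to 5-FU differed between the genotypes for 31 of the 145 genes (interaction term, FDR < 0.05 and a difference above 1.5-fold). It was lower in knockout than in *WT* cells for 29 genes and higher for 2, with a median difference of -0.428 (log2). Of all genes, 10.1% were called (3.42% higher and 6.66% lower, median -0.095), and of the 2366 other genes at like levels 17.2% (3.34% higher and 13.9% lower, median -0.269). Of the 89 genes at 1 CPM in all states, 22 were lower and 0 higher (edgeR, unadjusted p below 0.05 for 47 of the 89 in either direction). Scaling shifts this comparison over all genes, where 551 were called higher and 1073 lower, against 703 and 674 with DESeq2 and 676 and 844 with TMM factors. Of the 145 genes, 2 were higher and 20 lower with DESeq2, and 2 higher and 22 lower with TMM factors. With 1 factor of RUVg, 1 was higher and 6 lower. The study's own pipeline used RUVg too. Its number of factors and its control genes are not given, so this fit is not a repeat of it. Of the 29 genes, 15 rose in *WT* cells, of which 3 also rose in knockout cells, 10 were not called there and 2 fell. Another 6 were not called in *WT* and fell in knockout cells, 7 were called in neither, and *LINC01089* fell in both.

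**Figure D1:**
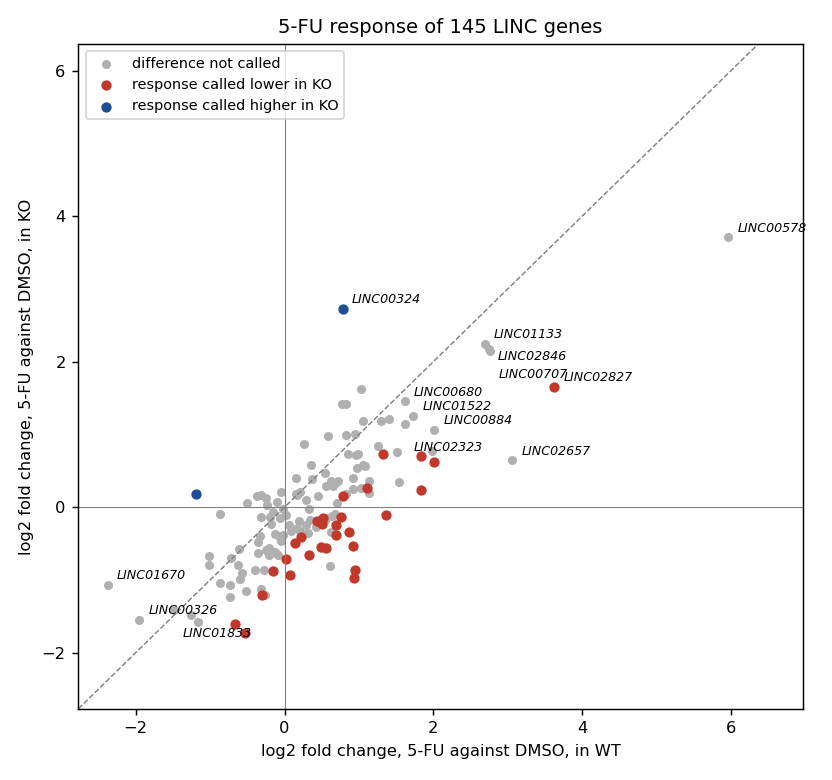
Log2 fold change after 5-FU in *WT* (x axis) and knockout cells (y axis) for the 145 LINC genes, with a dashed line of equal responses. The 29 genes with a lower response in the knockout (red) lie below the line and the 2 with a higher response (blue), *LINC00324* and, left of 0, *LINC01355*, above it. The value of *LINC00578* in *WT* rests on at most 1 count per library with DMSO and is no measure of size. Its value in knockout cells rests on at most 5 counts per library with DMSO.

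*LINC02732* and *LINC01910* moved in opposite directions. *LINC02732* had 0.563, 1.22 and 1.39 CPM with DMSO and 2.25 and 1.88 CPM with 5-FU in *WT*, and 1.54, 1.59 and 1.61 against 0.956, 0.7 and 0.92 CPM in knockout libraries. It rose by 0.93 ± 0.30 (FDR 0.0151) in *WT* and fell by 0.97 (SE 0.30, FDR 0.0115) in knockout cells, a difference of -1.90 ± 0.43 (FDR 0.00439). With 1 factor of RUVg this difference lost the call (FDR 0.183). *LINC01910* had 0.949, 1.14 and 1.02 CPM with DMSO and 1.49 and 2.67 CPM with 5-FU in *WT*, and 1.29, 1.46 and 1.1 against 0.623, 0.7 and 0.92 CPM in knockout libraries, a difference of -1.81 ± 0.42 (FDR 0.00484). In neither gene did the libraries of the treatments overlap within a genotype.

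*LINC01521* rose in *WT* cells, from 1.34, 0.842 and 1.48 CPM to 3.07 and 3.46 CPM (1.36 ± 0.24, FDR 0.000152). knockout libraries had 2.38, 2.01 and 2.26 CPM with DMSO and 2.49, 2.49 and 1.53 CPM with 5-FU, which overlap (-0.11 ± 0.22, FDR 0.693). The responses differed by -1.47 ± 0.33 (FDR 0.00429). For *LINC01006* the difference was -1.45 ± 0.28 (FDR 0.00152). With 1 factor of RUVg, *LINC01521* and *LINC01006* lost the call (FDR 0.201 and 0.221). *LINC01534* and *LINC02827* passed the threshold narrowly, with -1.60 ± 0.57 (FDR 0.0483) and -1.97 ± 0.68 (FDR 0.0437), and lost the call with DESeq2 (FDR 0.117 and 0.0718) and TMM factors (0.0565 and 0.0505).

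*LINC00324* and *LINC01355* had a higher response in the knockout. *LINC00324*, on chromosome 17 (8220624 to 8224043, minus strand) with a start 13443 bases from that of the mitotic kinase gene *AURKB*, had 0.387, 0.379 and 0.369 CPM with DMSO and 0.742 and 0.582 CPM with 5-FU in *WT*. In knockout libraries it had 0.333, 0.167 and 0.387 CPM with DMSO and 2.08, 2.1 and 2.28 CPM with 5-FU, above all other libraries. The gene met the 1 CPM rule only in knockout cells with 5-FU, so that its highest state follows from how it was chosen. It rose by 2.73 ± 0.32 (FDR 1.47e-06) in knockout and by 0.78 ± 0.36 (FDR 0.0683, not called) in *WT* cells, a difference of 1.95 ± 0.49 (FDR 0.00844). With 1 factor of RUVg this difference lost the call (FDR 0.145). *LINC01355* fell in *WT* cells, from 1.9, 1.56 and 2.72 CPM to 0.922 and 0.958 CPM, and had 2.75, 2.63 and 2.55 CPM with DMSO and 3.61, 3.23 and 2.67 CPM with 5-FU in knockout libraries (difference 1.36 ± 0.32, FDR 0.00583).

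Among the genes highest per kilobase, the difference in response was called for *LINC01123*, *LINC00173* and *LINC00623*. *LINC01123* rose in *WT* cells from 23.9, 18.5 and 21.4 CPM to 38.4 and 31.8 CPM (0.69 ± 0.10, FDR 2.76e-05), whereas knockout libraries had 19.7 to 22.9 CPM with DMSO and 18.6 to 20.8 CPM with 5-FU (difference -0.94 ± 0.14, FDR 0.000232). Its near-identical copy *LINC01106* had 23.8 to 24.6 CPM with DMSO and 23.6 and 25.4 CPM with 5-FU in *WT* cells. *LINC00173* had 17.6 ± 1.31 CPM (SD, n = 2) in *WT* and 10.3 ± 1.12 CPM (SD, n = 3) in knockout cells with 5-FU, and the responses differed by -0.99 ± 0.13 (FDR 5.25e-05). *LINC00623* differed by -0.73 ± 0.13 (FDR 0.000797). *LINC00857* rose from 14.3 ± 1.4 to 28.9 ± 2.25 CPM in *WT* (0.97 ± 0.09, FDR 1.61e-07) and from 11.6 ± 0.529 to 17.7 ± 1.16 CPM in knockout cells (0.53 ± 0.09, under 1.5-fold). Its responses differed by -0.44 ± 0.13 (FDR 0.0203), which was under 1.5-fold and not called. *LINC00294* rose in both, by 0.83 ± 0.10 and 0.99 ± 0.09, and *LINC01315* fell by 0.62 (SE 0.10) in knockout cells. The responses of *LINC00294* and *LINC01315* differed by 0.16 ± 0.13 (FDR 0.404) and -0.49 ± 0.14 (FDR 0.0172, under 1.5-fold), neither of which was called. *LINC01578* (36.0 ± 0.635 CPM with DMSO and 28.8 ± 2.28 CPM with 5-FU in *WT*) and *LINC00888* were called in none of the comparisons.

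13 of a list of 20 LINC genes with a name or a role in the cancer literature met the rule. Between genotypes, 4 of them were higher and 1 lower in DMSO, and 3 were higher and 3 lower in 5-FU, where 14.1 and 18.1% of all genes were called. After 5-FU, 3 rose and 1 fell in *WT*, and 3 rose and 2 fell in knockout cells, where 27.8 and 25.2% of all genes were called. With 13 genes, nothing is read from these counts. *LINC00511*, *LINC00659* and *LINC01234* were called in none of these, with *LINC00511* at 30.5 ± 0.871 CPM and *LINC01234* at 35.9 ± 0.553 CPM in *WT* cells with DMSO (SD, n = 3). *LINC00174* rose from 4.85 ± 0.447 to 12.4 ± 2.27 CPM in *WT* and from 7.97 ± 0.313 to 14.1 ± 0.502 CPM in knockout cells, and was higher in the knockout in DMSO (0.70 ± 0.12, FDR 0.000132). *LINC00460*, described as a promoter of invasion in several tumors, fell in knockout cells from 2.51 ± 0.121 to 1.39 ± 0.0659 CPM (-0.93 ± 0.19, FDR 0.000427) and had 2.13 ± 0.228 and 2.29 ± 0.281 CPM in *WT* cells. *LINC00467* and *LINC00662* differed in response by -0.63 ± 0.12 (FDR 0.000985) and -0.63 ± 0.14 (FDR 0.00303).

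Some LINC genes start close to a coding gene. 19 of the 143 matched genes had a coding start within 5 kb, and for 16 of them it was on the opposite strand. Where they are transcribed away from each other, such pairs can share a promoter that works in both directions. The 16 pairs were not restricted to this arrangement. In 15 of the 16 pairs the neighbor was tested too. Across the 15 pairs, the log2 fold changes of the LINC gene and its neighbor correlated with r = -0.431 (rho -0.068) between genotypes in DMSO and -0.603 (rho -0.25) in 5-FU, and with 0.002 (rho 0.021) after 5-FU in *WT* and 0.549 (rho 0.586) in knockout cells. The negative values include *LINC01006* and *RNF32*, the pair farthest from 0. For 55 genes with a tested nearest coding start over 50 kb away, r was 0.532, 0.465, 0.102 and 0.187 and rho 0.284, 0.294, 0.129 and 0.202. The points share the libraries, and these values are a description.

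**Figure D2:**
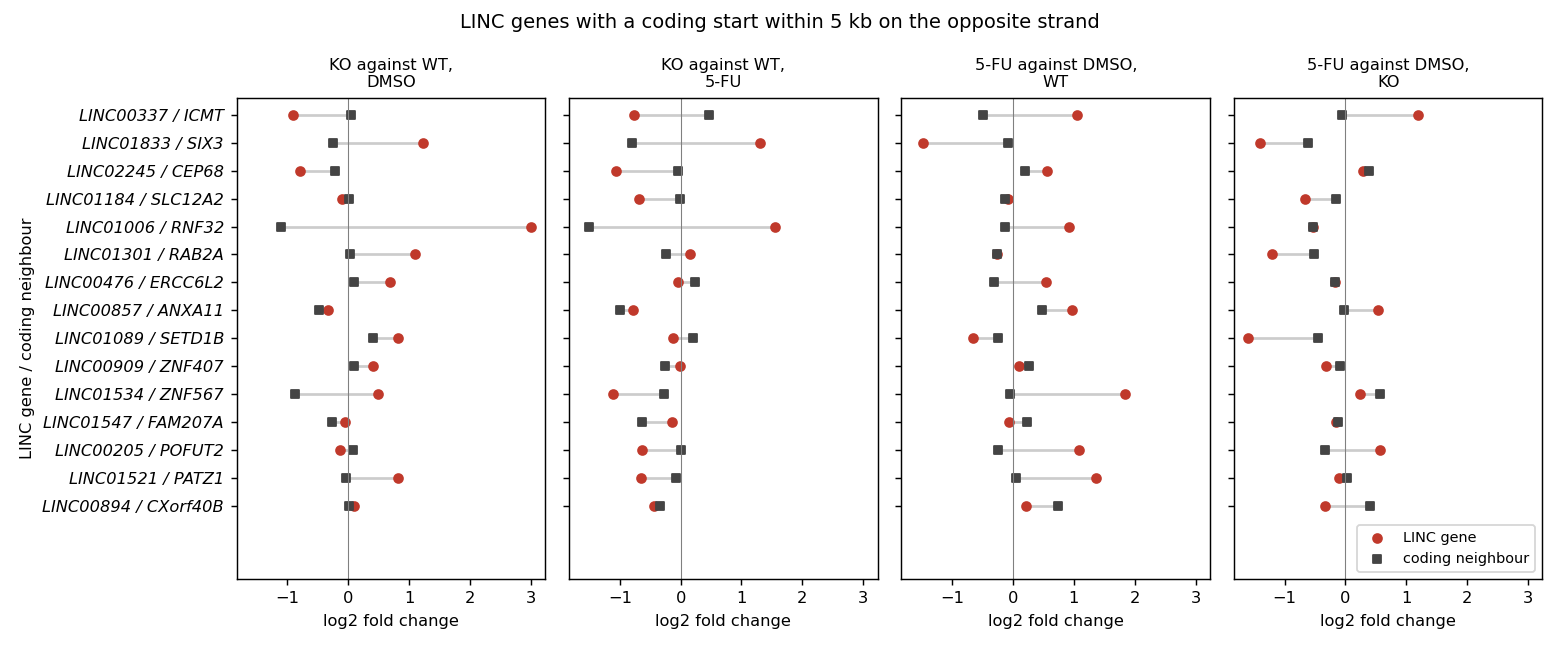
Log2 fold changes of LINC genes (red circles) and their coding neighbors (grey squares) in 4 comparisons, for the 15 pairs with starts within 5 kb on opposite strands. *LINC01006* is at 3.01 and *RNF32* at -1.11 in knockout against *WT* cells with DMSO, and *LINC00857* and *ANXA11* lie close together between the genotypes.

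The promoters of *LINC00205* and *LINC01534* are shown because each holds the start of a coding gene on the other strand (RefSeq, GRCh38.p14). The promoter of *LINC01547* holds that of *SLX9* too (112 bases between the starts, 18 CpG) and is not shown. *LINC01547* was called in none of the comparisons. Capitals mark the stretch between both starts, 154 bases with 22 CpG for *LINC00205* and *POFUT2*, and 163 bases with 20 CpG for *LINC01534* and *ZNF567*.
LINC00205, chr21:45287802-45288101, plus strand: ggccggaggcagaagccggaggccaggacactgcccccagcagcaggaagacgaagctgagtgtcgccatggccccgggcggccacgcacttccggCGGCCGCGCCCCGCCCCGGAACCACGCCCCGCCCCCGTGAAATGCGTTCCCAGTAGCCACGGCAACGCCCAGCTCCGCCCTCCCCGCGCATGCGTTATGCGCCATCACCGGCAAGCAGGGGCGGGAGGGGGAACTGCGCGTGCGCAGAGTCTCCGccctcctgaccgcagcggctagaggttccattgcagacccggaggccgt
LINC01534, chr19:36687400-36687699, minus strand: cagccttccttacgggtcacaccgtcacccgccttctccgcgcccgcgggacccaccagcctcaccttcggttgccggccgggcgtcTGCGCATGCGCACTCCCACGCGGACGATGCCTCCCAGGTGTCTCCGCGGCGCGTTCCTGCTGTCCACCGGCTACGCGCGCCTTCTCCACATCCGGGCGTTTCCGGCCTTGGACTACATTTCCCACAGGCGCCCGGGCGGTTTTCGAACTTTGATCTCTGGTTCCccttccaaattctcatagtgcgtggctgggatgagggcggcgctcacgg

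*LINC00205* had 28.3, 23.5 and 29.7 CPM with DMSO and 57.5 and 60.1 CPM with 5-FU in *WT*, and 27.4, 24.4 and 24.4 against 39, 41.1 and 39.5 CPM in knockout libraries. Its log2 fold change after 5-FU was 1.08 ± 0.08 (FDR 1.25e-08) in *WT* and 0.56 ± 0.08 (FDR 1.03e-05, under 1.5-fold) in knockout cells. These responses differed by -0.51 ± 0.11 (FDR 0.00388), which was under 1.5-fold and not called. *POFUT2*, a protein O-fucosyltransferase gene, changed by -0.25 ± 0.07 and -0.33 ± 0.06, neither of which reached 1.5-fold. *LINC01534* had 0.246, 0.421 and 0.227 CPM with DMSO and 0.896 and 1.27 CPM with 5-FU in *WT* cells (1.84 ± 0.40, FDR 0.00083), where the zinc finger gene *ZNF567* changed by -0.04 ± 0.14. *LINC01521* rose in *WT* cells while *PATZ1*, a transcription factor gene starting 431 bases away, changed by 0.05 ± 0.07. *LINC01089* and *SETD1B*, which encodes an H3K4 methyltransferase and starts 103 bases away, changed by -1.60 ± 0.13 and -0.45 ± 0.08 in knockout cells, and 60.6% of the exon bases of *LINC01089* overlap an antisense transcript. Whether strand was used for counting is not given in the sources used here, so that counts of overlapping transcripts cannot be told apart.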

How the data were processed

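RNA of HCT116 clones was measured by RNA-seq. The authors made random-primed libraries, sequenced them as paired ends on an Illumina NovaSeq, and mapped them to GRCh38 with ENSEMBL annotation in CLC Genomics Workbench. They deposited raw counts per gene symbol, without normalization, in 1 file per library. Strand use is not given in the sources used here. The study's own pipeline used upper-quartile scaling, RUVg and DESeq2.

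A gene was tested if any of the 11 libraries held 20 or more counts of it (16123 of 60580). Counts were fitted with edgeR 4.0.16 (R 4.3.3) by the quasi-likelihood test, two-sided, with upper-quartile factors (0.955 to 1.05) and 1 mean per state. The interaction is the 5-FU response in knockout minus that in *WT* cells. A gene was called at FDR < 0.05 and fold change > 1.5. Standard errors were derived from the fold change and its F statistic. The fit was tested on simulated data with 200 changed genes. Levels are CPM of the raw totals, and fold changes depend on scaling. Totals of 22831415 to 39064210 limit precision at low levels.

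The LINC genes and lists were chosen with earlier results of these data known. Genes named are, for each comparison and direction, the 6 called with the largest change among those whose libraries do not overlap, the 6 largest interactions in each direction, the 10 highest per kilobase, 3 on each side of the 1 CPM threshold, a list from the literature, 5 pairs with starts within 5 kb, and the 5 highest with a seed match. *LINC01503*, *LINC01881*, *LINC00923*, *LINC01547* and the 4 genes with a p53 half-site were named after their values were seen. Positions are from GENCODE 44, near-identical copies from blastn 2.17.0 (at least 98% identity over at least 50% of the exons), and promoters and microRNAs from RefSeq. Alternatives were TMM factors, DESeq2 1.42.0, filters, RUVg, replicate blocks, and leaving out each library.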

Additional observations from a re-analysis of the deposited data

Results flagged for a closer look

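The response to 5-FU differed between knockout and *WT* cells for 31 LINC genes, by the interaction term of the edgeR quasi-likelihood fit (FDR < 0.05 and a difference above 1.5-fold). It was lower in the knockout for 29 and higher for 2. Of all genes tested 10.1% were called (3.42% higher, 6.66% lower), and of other genes at like levels 17.2%. Among the genes named, the differences (log2, knockout minus *WT*) were -1.97 for *LINC02827*, -1.90 for *LINC02732*, -1.81 for *LINC01910*, -1.60 for *LINC01534*, -1.47 for *LINC01521* and -1.45 for *LINC01006*, and 1.95 for *LINC00324* and 1.36 for *LINC01355*. *LINC02827* and *LINC01534* lost the call with DESeq2 and with TMM factors. With 1 factor of RUVg both lost it too, as did *LINC02732*, *LINC01521*, *LINC01006* and *LINC00324* (FDR 0.183, 0.201, 0.221 and 0.145), whereas *LINC01910* and *LINC01355* kept it. The value of *LINC02827* rests on 1, 2 and 5 counts in *WT* libraries with DMSO. States of 2 or 3 libraries are too small for Dixon's check of single libraries, which was not run.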

How the results depend on the processing

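Counts of LINC genes called depended on the filter and on RUVg. Counts below are given as higher and lower. With at least 20 counts in every library, which tests fewer genes, 16 and 6 were called between the genotypes in DMSO and 9 and 25 in 5-FU, 30 rose in *WT* and 15 in knockout cells, and 1 had a higher response in the knockout. With 1 factor of RUVg (11123 control genes), 6 and 3 were called between the genotypes in DMSO, 0 and 0 after 5-FU in either genotype, and 1 and 6 for the interaction, and the signs of *LINC01670* in *WT* (3.01) and *LINC02827* in knockout cells (-0.33) turned. This factor lay almost wholly between the treatments and its controls held genes that 5-FU changed, so that the loss of drug calls decides nothing. Choosing genes by their mean over the states left 1 with a higher response in the knockout. Without genes whose exons overlap another gene, a choice made after seeing the data, 11 were lower in the knockout in DMSO, 7 fell in *WT* and 19 rose in knockout cells.

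Leaving out 1 library at a time gave 23 to 28 higher and 12 to 18 lower in DMSO, and 13 to 17 and 38 to 44 in 5-FU. The 12 came without replicate 3 of knockout cells with DMSO. After 5-FU it gave 44 to 51 and 11 to 13 in *WT*, 27 to 30 and 24 to 31 in knockout cells, and 2 to 3 and 21 to 31 for the interaction. Where this left 1 *WT* library with 5-FU, its spread was taken from the other states. Deviations of same-numbered libraries from the means of their states correlated weakly (-0.091 to 0.078 in 15 pairs). With means of 2 or 3 libraries, this cannot exclude that same-numbered libraries share a clone or a batch. With the replicate block, 28 and 17 genes were called in DMSO, 16 and 42 in 5-FU, 49 and 12 in *WT*, 30 and 28 in knockout cells, and 2 and 26 for the interaction. The file headers number the *WT* libraries with 5-FU differently, and a block by those numbers, added after seeing the data, gave 2 and 26 for the interaction.

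Of 56 named values with a test, 54 kept their call under TMM factors, DESeq2, both filters and both blocks, although the stricter filter left only 17 of them to test, and 51 in all 11 fits without 1 library. The interactions of *LINC01534* and *LINC02827* were the other 2. With RUVg 17 of the 56 kept their call, 37 lost it and 2 changed sign. At 1 CPM, where many of these genes lie, a library holds few counts, and small differences were not detectable at this depth.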
